A study of Mus musculus with 9 samples.

Results

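Of the 37074 gene names on the arrays, 86 were taken as genes of the respiratory chain and the ATP synthase, by their names alone: the Nduf genes of complex I (38), the Sdh genes of complex II (4), the Uqcr genes and Cyc1 of complex III (9), the Cox4 to Cox8 genes of complex IV (17) and the Atp5 genes of complex V (18). They were represented by 133 probes, and the brightest probe over the 9 arrays stood for each gene. A few names that match are not subunits in the strict sense (Cox7a2l, Ndufa4l2, Atp5s, Atp5sl and the pseudogene Atp5c1-ps) and were kept with their complex. The rule used no measured difference between groups.

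The respiratory chain sits in the inner mitochondrial membrane. Complex I takes electrons from NADH and complex II, which is also succinate dehydrogenase of the tricarboxylic acid (TCA) cycle, takes them from succinate. Complex III passes them through cytochrome c to complex IV, which reduces oxygen, and complexes I, III and IV pump protons out of the matrix. Complex V, the ATP synthase, lets the protons back through a ring of c subunits and makes ATP. Nearly all subunits are encoded in the nucleus and a small set of core subunits in mitochondrial DNA. Complexes I, III, IV and V hold subunits of both genomes, and complex II only nuclear ones. Hepatocytes, the main cell of the liver, are rich in mitochondria and use this machinery for fatty acid oxidation, gluconeogenesis and urea synthesis.

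Liver RNA of male C57BL/6 mice was hybridised to 9 1-colour Agilent arrays, 3 for each of 3 groups. The labels give 12 months as the age of all, while the text of the study counts the same span from the injection of the virus. GP73 is a Golgi membrane protein encoded by Golm1. All mice had received an adeno-associated virus (AAV) through the tail vein: an empty vector (AAV-V) or a vector for GP73 (AAV-GP73). The study calls the empty vector specific to hepatocytes, and the promoter of either is not given in the sources used here. Both vectors were studied on a regular diet, and the third group (AAV-V HFD) had the empty vector and a high-fat diet. The text of the study and its methods differ on how long the HFD was fed, and neither says if each array holds RNA from a single mouse or from several pooled, so that p-values measure the spread between these samples, which may be technical. The question put to the genes of each complex was how AAV-GP73 liver on a regular diet and the liver of HFD mice each stood against AAV-V liver, and against each other.

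Some properties of the arrays moved with the groups and bear on every value that follows. A probe was taken as detected where the scanner software marked it well above background. Of the spots, 10.2% to 10.7% were detected in AAV-V, 16% to 18.4% in AAV-GP73 and 13.8% to 16.7% in AAV-V HFD, and the median unscaled signal of the 2667 probes detected on all 9 arrays was 35.7 ± 2.81, 113 ± 14.2 and 105 ± 25.1 (SD, n = 3 each). AAV-V replicates 2 and 3 carried the software's mark for evaluation. AAV-V and AAV-GP73 shared slide 1 and its scan, in separate columns of the slide, while AAV-V HFD lay on slide 2, and the effects of diet and of slide cannot be told apart. The single Golm1 probe was detected on 0 of 9 arrays and could not check the labels. Of 8 hepatocyte markers (Alb, Apoa1, Ttr and others), 8 were detected on all 3 AAV-V and all 3 AAV-GP73 arrays, and 7 on all 3 AAV-V HFD arrays.

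Levels are log2 signals, with the arrays brought to a common 75th percentile over the probes detected on all 9, and differences are differences of group means on that scale. A gene was tested if its probe was detected on all arrays of at least 1 group, which 5761 genes were. A call of higher or lower required limma's p, adjusted over all genes tested after Benjamini and Hochberg, to be under 0.05 and the fold change to reach 2. Of the 86 genes, 75 were tested and 52 were detected on all 9 arrays. In bulk liver RNA, fewer cells of a type and less RNA per cell cannot be told apart.

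The nuclear genes of all 5 complexes were mostly higher in AAV-GP73 than in AAV-V. Of the 75 tested, 57 were called higher (33.2% of all genes tested were), 1 was called lower (19.4% of all genes tested were) and 17 were not called. The differences ran from -1.71 to 3.36 with a median of 1.25, against a median of 0.60 over all genes tested. Because a dim probe could pass only through a group in which it was bright, the 52 genes detected on all 9 arrays were also read alone: 36 were called higher (15.9% of all such genes) and 1 lower (32.6% of all such genes), with a median difference of 1.14 against -0.19. The 3 AAV-GP73 arrays lay above all 3 AAV-V arrays for 66 of the 75 genes (44.6% of all genes tested) and below them for 1 (23% of all genes tested).

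The HFD liver showed the same direction against AAV-V. In AAV-V HFD, 49 of 75 were called higher than in AAV-V (24.8% of all genes tested), 1 lower (18.2% of all genes tested) and 25 were not called, with differences from -1.25 to 2.90, a median of 1.19 and a median of 0.37 over all genes tested. Among the 52 genes detected on all 9 arrays, 31 were called higher (11.3% of all such genes) and 1 lower (30.2% of all such genes), with a median of 1.08 against -0.36. The AAV-V HFD arrays lay above all AAV-V arrays for 65 of the 75 genes (33.8% of all genes tested). The AAV-V arrays served in both comparisons, so that any error in them is shared. Side by side, 48 genes were called higher in both, 9 in AAV-GP73 alone, and Ndufs8 in AAV-V HFD alone. The difference between the groups was itself tested and is given further on.

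**Figure D1:**
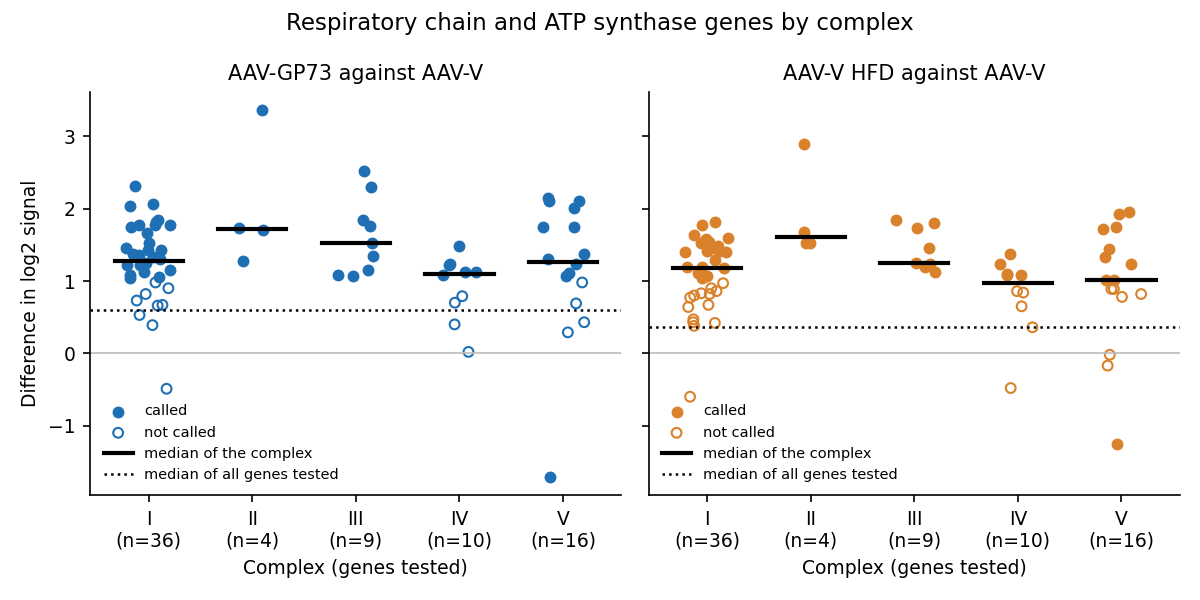
Each point is a gene tested, placed by its difference in log2 signal (vertical axis) and its complex (horizontal axis), for AAV-GP73 against AAV-V on the left and AAV-V HFD against AAV-V on the right. Filled points were called, black bars are the medians of a complex and the dotted line is the median of all genes tested. In both panels the median of every complex lies above the dotted line, and the c ring gene Atp5g2 lies alone at -1.71 and -1.25.

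The size of these differences depends on how dim signals are treated. Of the 75 genes tested, 13 were detected on no AAV-V array, and all 13 were called higher in AAV-GP73. For such a gene the group mean was set against the lowest signal that counts as detected, which gives an "at least" fold: 11 of the 13 had such a bound, from 1.01 to 3.56, and 6 bounds were of 2 or more. With the 13 genes at their bounds, 50 genes were called or had a bound of at least 2 in AAV-GP73 and 43 for AAV-V HFD, with medians of 1.13 and 1.09. With a normexp background correction and an offset of 50, the count of genes called higher fell to 5 in AAV-GP73 and 3 with HFD. Of all genes tested, 2.53% and 1.27% were then called higher. The median differences fell to 0.15 and 0.07, while those of all genes fell to -0.62 and -0.73. The offset was above the mean AAV-V signal of 68 of the 75 genes and above the mean AAV-GP73 signal of 12. The median of the 75 genes then lay 0.77 and 0.80 above that of all genes, against 0.65 and 0.82 without this correction. The part of the offset in the lower counts and in changes of sign was not tested. With an offset of 1, chosen after seeing the data, 36 and 28 genes were called higher (13.8% and 6.42% of all genes tested).

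The scaling sets the counts too, and the differences rest on the AAV-V arrays. With the 75th percentile taken over all probes, 73 genes were called higher in AAV-GP73 and 70 with HFD, with 0 lower. These calls covered 64.5% and 56.8% of all genes tested. With the spike-in spots as reference, 74 and 72 were called higher, with 0 lower, as were 76% and 65.5% of all genes tested. Those scalings raised the median of all genes tested to 1.59 and 1.32, and to 2.28 and 1.71. Leaving out the 2 marked AAV-V arrays was also chosen after seeing the data, and leaves 1 AAV-V array. The median differences were then 1.12 in AAV-GP73 and 0.95 with HFD, against 0.38 and 0.16 over all genes tested.

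Complex I, the entry point for NADH, had 27 of 36 genes tested called higher in AAV-GP73 (median 1.28) and 22 of 36 in AAV-V HFD (median 1.19), and none was called lower. Of all genes tested, 33.2% and 24.8% were called higher, with medians of 0.60 and 0.37. These shares and medians are the background for the counts of every complex and class of subunit that follow. Among the 7 core subunits of complex I, which carry the flavin, the iron-sulfur clusters and the quinone site, 6 were called higher in each comparison, with medians of 1.82 and 1.40. Among 29 accessory subunits, which surround and stabilise the core, 21 and 16 were called higher, with medians of 1.22 and 1.11. The larger share of dim probes among core subunits goes with these numbers: 1 of the 7 was detected on all 9 arrays, against 22 of the 29, and its part in the difference between core and accessory subunits was not tested.

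Ndufv1, the flavin-binding subunit that accepts electrons from NADH, stood at 3.99, 4.19 and 3.56 on the AAV-V arrays, at 5.50, 6.63 and 6.55 in AAV-GP73 and at 5.31, 5.42 and 6.33 in AAV-V HFD. The AAV-V arrays were below all others, and Ndufv1 was detected on 1 of them. Its difference of 2.31 ± 0.38 (SE, n = 3 per group, adjusted p = 0.000405 from limma) was the largest of complex I in AAV-GP73, and it was 1.77 in AAV-V HFD (adjusted p = 0.00294 from limma). With the offset of 50, its difference in AAV-V HFD was -0.07. Its partner Ndufv2, which holds an iron-sulfur cluster beside the flavin, was also detected on 1 AAV-V array. It was 1.78 ± 0.28 higher in AAV-GP73 and 1.40 higher in AAV-V HFD, and stood at -0.06 and -0.25 with the offset of 50. For both genes the differences include AAV-V values that were not detected. A dimmer probe of Ndufv1, detected on no AAV-V array, was called higher in AAV-GP73 and not in AAV-V HFD.

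Ndufs3, a core subunit of the arm that projects into the matrix, read 4.90, 4.65 and 4.06 in AAV-V, 6.09, 6.89 and 6.76 in AAV-GP73, and 5.86, 6.24 and 6.41 in AAV-V HFD. It was detected on 2 AAV-V arrays and was called higher in both (2.04 ± 0.32, adjusted p = 0.000323, and 1.63, adjusted p = 0.00197, both from limma). Ndufs7, which carries the last cluster before the quinone, was also detected on 2 AAV-V arrays and was 1.82 and 1.49 higher. Ndufs1, the subunit with the most iron-sulfur clusters, was detected on no AAV-V array. It was at least 1.53-fold higher in AAV-GP73 and at least 1.13-fold higher in AAV-V HFD. The limma adjusted p of 0.00199 in AAV-GP73 belongs to the difference as measured and not to the bound. With the offset of 50, Ndufs1 stood at -0.41 in AAV-GP73 and -0.63 with HFD.

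Ndufs8, which holds clusters on the path to the quinone, had the smallest difference of the core subunits in AAV-GP73. Its AAV-V arrays read 4.96, 5.19 and 4.97, its AAV-GP73 arrays 5.65, 6.14 and 6.03, and its AAV-V HFD arrays 6.10, 5.98 and 6.17, with AAV-V below the other 6 arrays. The difference of 0.90 in AAV-GP73 was under the fold threshold (adjusted p = 0.00929 from limma) and that of 1.04 in AAV-V HFD was over it (adjusted p = 0.00556 from limma). The call in AAV-V HFD was lost without AAV-V HFD replicate 3 (47 genes of all complexes then called), and Ndufs8 was called in AAV-GP73 without AAV-GP73 replicate 1 (63 genes then called).

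The accessory subunits spread from Ndufc2 to Ndufs4. Ndufc2, a small membrane subunit, read 6.18, 6.15 and 5.34 in AAV-V and between 4.98 and 5.52 on the other 6 arrays, and its differences of -0.49 (adjusted p = 0.165 from limma) and -0.60 (adjusted p = 0.105 from limma) were not called. It was the one gene of complex I below 0 in each comparison, and stood at 1.19 in AAV-GP73 when arrays were scaled on the spike-in spots. Ndufs4, which is needed for a stable NADH-oxidising module, was detected on no AAV-V array and was at least 1.7-fold higher in AAV-GP73 and at least 1.21-fold higher in AAV-V HFD. Ndufb2 and Ndufa7 were 1.78 and 1.75 higher in AAV-GP73, and Ndufa7 was detected on 2 AAV-V arrays. Ndufa13 and Ndufb9 stood at 0.39 and 0.53 in AAV-GP73, and neither was called. Ndufv3 had a second tested probe that went the other way: the brighter one gave 1.22 and 1.19, and the dimmer one -1.98 (adjusted p = 0.000582 from limma over all probes) and -1.29. Among the 19 genes with more than 1 tested probe it was the sole one whose probes were called in opposite directions, and for 9 of the 19 the probes differed in call in at least 1 comparison.

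**Figure D2:**
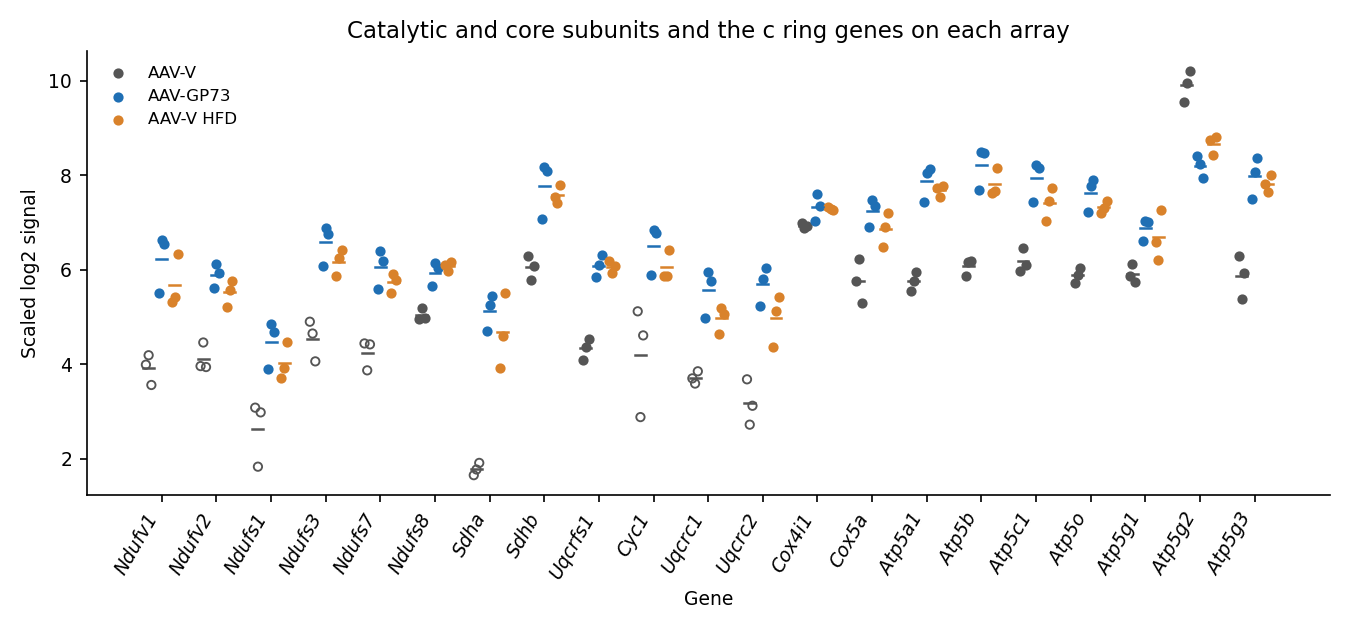
Scaled log2 signal (vertical axis) of the catalytic and core subunits and the c ring genes (horizontal axis) on each of the 9 arrays, with a horizontal line at each group's mean. Open symbols mark a probe that was not detected on all 3 arrays of that group, and levels of different genes come from different probes and cannot be compared. The AAV-V points lie below the other groups for most genes, and above them for Atp5g2.

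Complex II had all 4 genes called higher in both comparisons, with medians of 1.72 in AAV-GP73 and 1.61 with HFD. Sdha, the flavoprotein that oxidises succinate, read 1.65, 1.77 and 1.91 in AAV-V, none of them detected, then 4.71, 5.25 and 5.44 in AAV-GP73 and 3.92, 4.59 and 5.51 in AAV-V HFD, all detected. It was at least 2.42-fold higher in AAV-GP73 and at least 1.76-fold higher in AAV-V HFD. The adjusted p of 8.1e-05 and 0.000335 from limma belong to the differences as measured, with undetected AAV-V values, and not to these bounds. This gene depends on the treatment of dim signals: with the offset of 50 its differences were -0.11 and -0.38.

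Sdhb is the iron-sulfur subunit, and its brighter probe, detected on all 9 arrays, stood at 6.29, 5.79 and 6.08 in AAV-V, at 7.08, 8.18 and 8.09 in AAV-GP73, and at 7.55, 7.41 and 7.79 in AAV-V HFD. AAV-V did not overlap with the other groups, and its differences were 1.73 ± 0.33 (adjusted p = 0.000929 from limma) and 1.53 (adjusted p = 0.0029 from limma). Its dimmer probe, detected on 2 AAV-V arrays, was called in neither comparison (0.70 and 0.34, adjusted p = 0.168 and 0.522 from limma over all probes). Sdhc and Sdhd anchor the complex in the membrane and bind quinone. Sdhd, detected on 2 AAV-V arrays, was 1.71 and 1.68 higher. Sdhc was at least 2.13-fold and at least 2.56-fold higher, but stood at -0.38 and -0.31 with the offset of 50.

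Complex III had all 9 genes called higher in both comparisons, with medians of 1.53 and 1.25. Its 4 larger subunits had medians of 2.07 and 1.77, and its 5 small subunits, all detected on all 9 arrays, had medians of 1.15 and 1.21. Of the 4 larger ones, 1 was detected on all 9 arrays, and the part of dim probes in this contrast was not tested. Cyc1 is cytochrome c1, the haem protein that hands electrons to cytochrome c. It read 5.12, 2.88 and 4.61 in AAV-V, 5.88, 6.84 and 6.78 in AAV-GP73, and 5.87, 5.86 and 6.42 in AAV-V HFD. The probe was detected on 2 AAV-V arrays, and the 2.88 of AAV-V replicate 2 lay below the lowest detected signal of that array (3.87). The differences were 2.30 ± 0.50 (adjusted p = 0.00222 from limma) and 1.85, and they include that undetected value. The files give this probe no place in the genome. The other probe of Cyc1, which lies in mm9 chr15:76175938-76175997, was detected on 1 AAV-V array. It gave 1.01 and 0.59, and was not called for AAV-V HFD (adjusted p = 0.142 from limma over all probes). Uqcrfs1, the Rieske iron-sulfur protein, varied less: 4.09, 4.37 and 4.54 in AAV-V against 5.84, 6.11 and 6.31 in AAV-GP73 and 6.18, 5.93 and 6.07 in AAV-V HFD. Its differences were 1.76 ± 0.26 and 1.73 (adjusted p = 0.000229 and 0.000565 from limma).

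Uqcrc1 and Uqcrc2, the core proteins on the matrix side, were detected on no AAV-V array and on all arrays of the other groups. Uqcrc1 was at least 3.26-fold higher in AAV-GP73 and at least 2.16-fold higher in AAV-V HFD, and Uqcrc2 at least 3.56-fold and at least 2.17-fold higher. With the offset of 50, Uqcrc1 stood at -0.01 and -0.35 and Uqcrc2 at -0.40 in AAV-V HFD. Of the small subunits, Uqcrq was 1.53 and 1.46 higher and Uqcr10, the smallest change of the complex in AAV-GP73, 1.07 and 1.21. Uqcr10 was called in neither comparison without AAV-V replicate 3, and not in AAV-GP73 without AAV-GP73 replicate 2.

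Complex IV had the smallest share of calls among genes tested, 6 of 10 in AAV-GP73 (median 1.10) and 5 of 10 in AAV-V HFD (median 0.97), and none was called lower. Among genes detected on all 9 arrays it did not: 6 of 8 were called higher in AAV-GP73, against 14 of 23 in complex I and 9 of 14 in complex V. In AAV-V HFD these were 5 of 8, 11 of 23 and 8 of 14. Its catalytic core is encoded in mitochondrial DNA, and the nuclear subunits measured here surround it. Cox5a, a regulatory matrix subunit, changed most in AAV-GP73 at 1.48 ± 0.32 (adjusted p = 0.00213 from limma), with 5.77, 6.22 and 5.30 in AAV-V, 6.90, 7.48 and 7.34 in AAV-GP73 and 6.48, 6.91 and 7.21 in AAV-V HFD. In AAV-V HFD it was 1.10 higher, a call that was lost without AAV-V replicate 3 or AAV-V HFD replicate 3. Cox4i1, the subunit that binds ATP in the regulation of the enzyme, read 6.98, 6.88 and 6.92 in AAV-V, 7.04, 7.60 and 7.35 in AAV-GP73 and 7.33, 7.28 and 7.26 in AAV-V HFD. AAV-V lay below the other 6 arrays, but its differences of 0.40 and 0.36 were not called. Cox6b1, on the intermembrane side, gave 0.02 ± 0.34 (adjusted p = 0.971 from limma) and -0.48, with its groups overlapping.

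Complex IV is also the complex with the most isoforms tied to other tissues. Its 7 isoforms of muscle, testis or lung (Cox4i2, Cox6a2, Cox6b2, Cox7a1, Cox7b2, Cox8b and Cox8c) were not tested: 6 were detected on no array and Cox7a1 on 1 AAV-GP73 array. Their widely expressed counterparts were detected on all arrays of AAV-GP73 and AAV-V HFD. Of these, Cox7b rose by 1.22 and 1.37 and Cox7a2 by 1.12 and 1.09 in AAV-GP73 and AAV-V HFD, while Cox8a stood at 0.70 and 0.65 and was not called. Cox7b stood at -0.03 in AAV-GP73 with the offset of 50, and the call of Cox7a2 in AAV-V HFD was lost without AAV-V replicate 2. Cox6a1 was called in AAV-GP73 (1.08) and not in AAV-V HFD (0.86), and the first call was lost without AAV-V replicate 2. The Cox7a2-like protein Cox7a2l, a factor that joins complexes III and IV, was 1.13 and 1.23 higher, with both calls lost without AAV-V replicate 3. Ndufa4, named for complex I but described since as a subunit of complex IV, was 1.43 and 1.11 higher, and its relative Ndufa4l2 was detected on no array.

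Complex V, the ATP synthase, had 11 of 16 genes tested called higher and 1 lower in AAV-GP73 (median 1.27), and 9 of 16 higher and 1 lower in AAV-V HFD (median 1.02). The 5 subunits of the F1 head, where ATP is made, were all called higher in both, with medians of 2.01 and 1.72. Atp5b, the catalytic beta subunit, read 5.87, 6.17 and 6.18 in AAV-V, 7.69, 8.50 and 8.48 in AAV-GP73 and 7.62, 7.66 and 8.16 in AAV-V HFD. Atp5a1, the alpha subunit, read 5.56, 5.76 and 5.95, then 7.43, 8.04 and 8.14, then 7.74, 7.54 and 7.78. For each, the AAV-V arrays were apart from all others. The differences were 2.15 ± 0.30 and 1.74 for Atp5b (adjusted p = 0.000182 and 0.00103 from limma) and 2.11 ± 0.28 and 1.93 for Atp5a1 (adjusted p = 0.000139 and 0.000448 from limma). The gamma subunit Atp5c1, the rotor shaft inside the head, was 1.75 and 1.23 higher, and the epsilon subunit Atp5e 1.07 and 1.02.

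The 7 genes of the peripheral stalk and the membrane part changed less, with 4 and 3 called higher and medians of 1.11 and 0.89. Atp5o, which ties the stalk to the head, was 1.75 and 1.44 higher. Atp5j, another stalk subunit, stood at 0.29 and -0.02 and was not called. Atp5f1, the b subunit of the stalk, depended on the probe. Its brighter probe read 6.29, 5.84 and 6.13 in AAV-V, 6.10, 6.64 and 6.80 in AAV-GP73 and 5.67, 6.01 and 6.05 in AAV-V HFD, and its differences of 0.43 and -0.17 were not called. The dimmer one was detected on 1 AAV-V array and on all arrays of the other groups. It read 3.56, 3.59 and 4.63, then 6.03, 6.69 and 6.55, then 5.52, 5.93 and 6.03. It was called higher in both (2.50 and 1.90, adjusted p = 0.000173 and 0.00128 from limma over all probes). Those sizes and p-values rest in part on AAV-V values that were not detected. The 2 probes stand for different transcript records of the gene in the files. Scaled on the spike-in spots, the brighter probe stood at 1.16 in AAV-V HFD.

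The c ring is built from identical subunits that 3 genes encode, Atp5g1, Atp5g2 and Atp5g3, and these genes did not move together. The mature c subunit is the same from all 3 genes, and they differ in the leader peptide that is cut off in the mitochondrion. Atp5g2 was the one gene of the 75 called lower. Its probe (mm9 chr15:102493359-102493418, printed on 10 spots that were averaged) read 9.56, 9.96 and 10.21 in AAV-V, 8.40, 8.24 and 7.94 in AAV-GP73, and 8.74, 8.42 and 8.81 in AAV-V HFD. All 3 AAV-V arrays were above the other 6, and its differences were -1.71 ± 0.28 (adjusted p = 0.000366 from limma) and -1.25 (adjusted p = 0.0035 from limma).

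Atp5g3 went the other way, with 6.29, 5.39 and 5.94 in AAV-V, 7.50, 8.08 and 8.37 in AAV-GP73, and 7.82, 7.65 and 8.01 in AAV-V HFD, and differences of 2.11 ± 0.32 and 1.95 (adjusted p = 0.000264 and 0.000799 from limma). Atp5g1 read 5.86, 6.12 and 5.74, then 6.60, 7.04 and 7.02, then 6.59, 6.20 and 7.26, and its differences of 0.98 and 0.78 were not called. It was called in AAV-GP73 without AAV-V replicate 2 or AAV-GP73 replicate 1. The call of Atp5g2 depends on the scaling. Its difference was above 0 in 0 of 28 alternatives in AAV-GP73 and in 1 of 28 in AAV-V HFD. Many of these alternatives kept the same scaling, so that the count cannot show that the direction is independent of it. Atp5g2 was not called when arrays were scaled on all probes (-0.72 and -0.30). On the spike-in spots it was not called either and showed almost no difference (-0.03 and 0.09). Under quantile normalisation its difference of -0.90 in AAV-V HFD was not called. Those scalings moved the median of all genes tested to 1.59, 2.28 and 0.73 in AAV-GP73. Its call in AAV-V HFD was also lost with the offset of 50, with the authors' own log2 values and without the marked AAV-V arrays.

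The 120 bases before the transcription start of the c ring genes are shown because these genes encode the same protein and moved apart, and those of Sdha, Sdhb and Ndufs3 because they were among the called subunits of complexes II and I. They were chosen after the values were seen. Sequences are from RefSeq, build GRCm38.p6, 5′ to 3′ on the gene's strand, and capitals mark a match to 1 of 3 words of transcription factors known to act on these genes: CCGGAAG (the ETS family with GABP), GCATGCGC (NRF1) and CAAGGTCA (ERR), searched on both strands. The windows are chr11:96075632-96075751 (minus strand), chr15:102671048-102671167 (minus), chr2:73911327-73911446 (minus), chr13:74350241-74350360 (minus), chr4:140961151-140961270 (plus) and chr2:90904722-90904841 (minus), in the order printed.
Atp5g1: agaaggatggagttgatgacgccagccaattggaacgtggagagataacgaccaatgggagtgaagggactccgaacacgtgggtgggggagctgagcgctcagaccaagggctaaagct
Atp5g2: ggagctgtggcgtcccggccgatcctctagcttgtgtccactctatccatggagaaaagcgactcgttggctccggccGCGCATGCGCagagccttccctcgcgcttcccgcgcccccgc
Atp5g3: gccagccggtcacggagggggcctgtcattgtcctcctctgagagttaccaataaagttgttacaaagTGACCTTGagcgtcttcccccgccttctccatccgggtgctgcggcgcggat
Sdha: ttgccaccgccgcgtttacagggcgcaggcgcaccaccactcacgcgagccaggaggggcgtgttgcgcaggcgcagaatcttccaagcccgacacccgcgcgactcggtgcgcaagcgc
Sdhb: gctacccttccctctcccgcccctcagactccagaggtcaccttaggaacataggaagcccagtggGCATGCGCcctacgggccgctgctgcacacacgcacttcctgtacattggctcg
Ndufs3: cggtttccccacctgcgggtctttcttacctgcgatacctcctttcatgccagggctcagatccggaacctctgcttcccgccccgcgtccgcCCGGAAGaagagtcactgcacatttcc

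In these windows, Atp5g2 held the NRF1 word on both strands, where the matches overlap because the word is nearly its own reverse complement. Atp5g3 held the ERR word on the opposite strand, Sdhb the NRF1 word and Ndufs3 the ETS word, and none of the words was found in the windows of Atp5g1 and Sdha. Over 300 bases around the start (250 before and 50 after), 69 of the 86 genes had a promoter in the table. Of these, 16 (23.2%) held the ETS word, 10 (14.5%) the NRF1 word and 4 (5.8%) the ERR word. Among 17492 protein-coding genes with a promoter, 12.9%, 3.94% and 1.56% held them. At least 1 of the 3 words stood in 23 of the 69 (33.3%) and in 17.4% of all promoters. A match is a description of letters and not a binding site.

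AAV-GP73 and AAV-V HFD were then set against each other directly. None of the 75 genes was called (0 by limma, with 0 at an unadjusted p under 0.05, and 0 by the methods' t-test), whereas 2.52% of all genes tested were called in either direction and 15.9% had an unadjusted p under 0.05. The differences of AAV-GP73 minus AAV-V HFD ran from -0.46 to 0.73 with a median of 0.15, and 60 of 75 were above 0. The median of all genes tested was 0.09, and 57.1% of them were above 0. A difference that was not called is not shown to be absent, and the intervals say how large it could be: for 54 of the 75 genes the 95% confidence interval lay within a fold change of 2 in either direction, and over all 75 the limits reached -1.07 and 1.59. The smallest p of the set was that of Atp5f1 (0.60, 95% interval -0.02 to 1.22, adjusted p = 0.33 from limma), followed by Uqcrc2 (0.71, -0.08 to 1.51) and Uqcrc1 (0.60, -0.08 to 1.27). The 3 AAV-GP73 arrays lay above the 3 AAV-V HFD arrays for 4 genes (15.2% of all genes tested) and below them for 2 (8.73% of all genes tested). The median and the number above 0 rest on single arrays: without AAV-GP73 replicate 1 they were 0.35 and 69 of 77 tested, with 8 genes at an unadjusted p under 0.05, without AAV-GP73 replicate 2 they were 0.08 and 49, and without AAV-GP73 replicate 3 they were 0.06 and 45. Scaled on the spike-in spots, they were 0.50 and 74, with 14 genes at an unadjusted p under 0.05, and 0 were called in each of these. The median of all genes tested was then 0.44, so that the members lay 0.06 above it, the same distance as in the scaling reported. Without AAV-GP73 replicates 1, 2 and 3 in turn, the median of all genes tested was 0.14, 0.11 and 0.09. The share of all genes under that p was not counted in these settings.

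**Figure D3:**
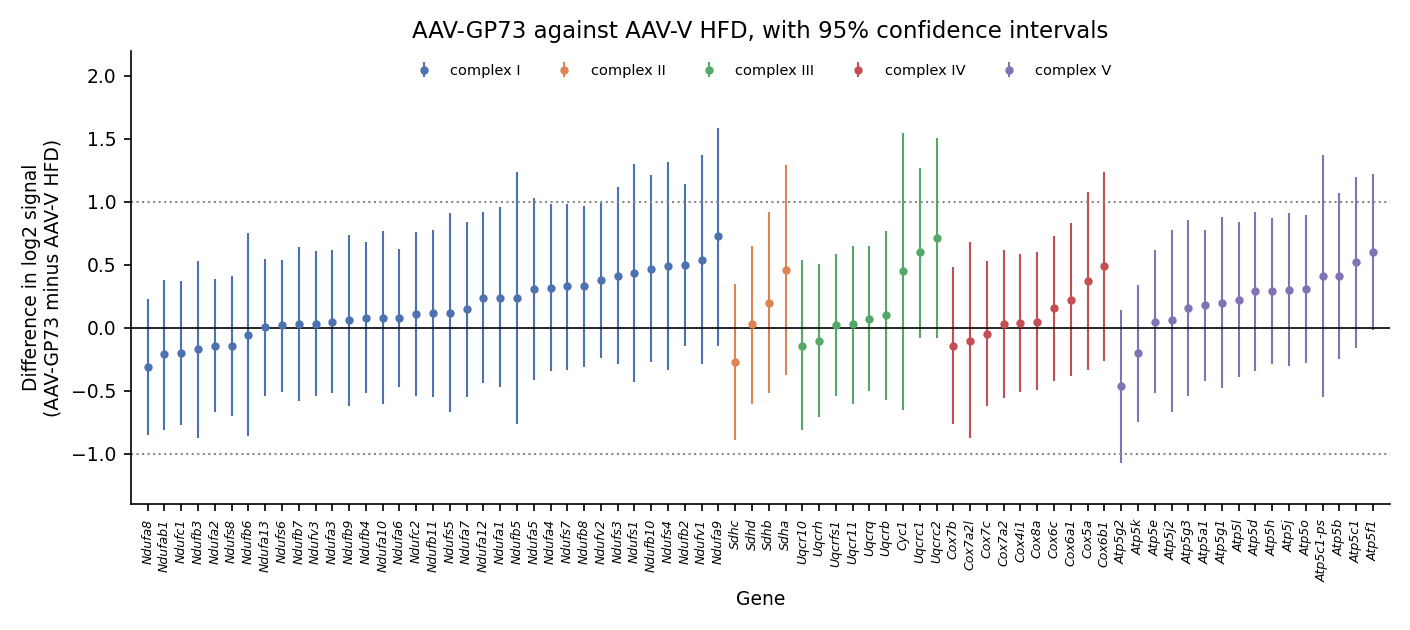
Difference in log2 signal of AAV-GP73 minus AAV-V HFD (vertical axis) for 74 of the 75 genes tested (horizontal axis), coloured by complex, with 95% confidence intervals from limma and dotted lines at a fold change of 2. Every interval shown includes 0, and 54 of 74 lie within a fold change of 2.

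The subunits encoded in mitochondrial DNA are not members of the set but belong to the same complexes. The arrays held probes for 11 of them, all detected on all 9 arrays, and the files place the ND3 probe on chromosome 1, so that signal from a nuclear copy cannot be told apart. In AAV-GP73, 8 were called higher (33.2% of all genes tested) and COX2 lower (-1.05, adjusted p = 0.0159 from limma), with a median difference of 1.37. ND1 of complex I rose most, from 8.99, 8.53 and 7.88 in AAV-V to 11.99, 10.29 and 9.64 (2.18 ± 0.55, adjusted p = 0.00518 from limma). In AAV-V HFD it read 10.53, 9.56 and 9.28, and its difference of 1.32 was not called (adjusted p = 0.0599 from limma). None of the 11 was called in AAV-V HFD by limma, where 24.8% of all genes tested were called higher, and the median was 0.56. At an unadjusted p under 0.05 from limma, which 60.5% of all genes tested had, there were 2, and 0 by the methods' t-test. In the direct comparison of the groups 0 of 11 were called by limma (2.52% of all genes tested), with 2 at an unadjusted p under 0.05 (15.9% of all genes tested). By the methods' t-test there were 0, so that these genes were not shown to differ between AAV-GP73 and AAV-V HFD.

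The mitochondrial DNA genes varied more between arrays of 1 group than the nuclear genes. Relative to each gene's mean in AAV-V, their median was 1.93, 1.15 and 0.60 on the AAV-GP73 arrays, 0.87, 0.48 and 0.26 on the AAV-V HFD arrays, and 0.47, -0.10 and -0.31 on the AAV-V arrays. In each group this median fell from replicate 1 to replicate 3, and a pairing by replicate was not tested for these genes by themselves. The 52 nuclear genes detected on all 9 arrays had medians of 0.89, 1.27 and 1.30 in AAV-GP73. These were 1.02, 1.09 and 1.12 in AAV-V HFD and 0.13, -0.08 and -0.04 in AAV-V. The AAV-GP73 array with the highest median of mitochondrial DNA genes was the one with the lowest median of nuclear genes. The calls also depended on the scaling. In AAV-V HFD, 9 of 11 were called higher when arrays were scaled on all probes, 10 on the spike-in spots and 7 under quantile normalisation. Of all genes tested, 56.8%, 65.5% and 35% were then called higher. COX2 in AAV-GP73 stood at 0.02 under quantile normalisation and at 0.63 on the spike-in spots. By the methods' t-test, 5 genes passed in AAV-GP73 before adjustment and 0 after it.

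**Figure D4:**
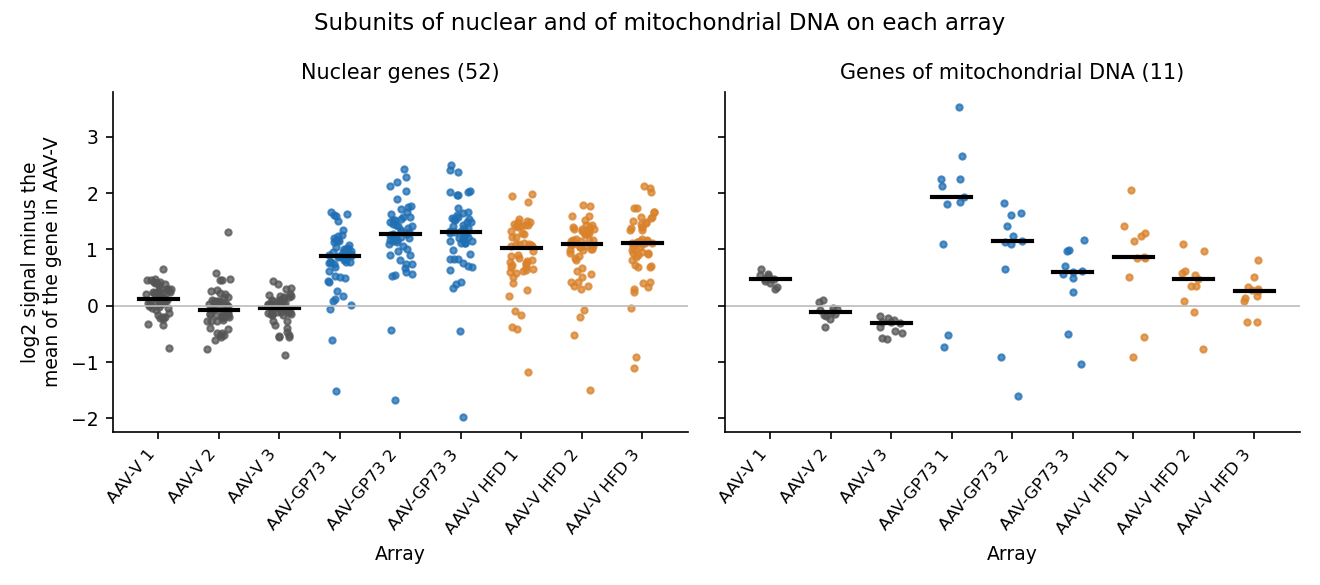
Log2 signal minus the gene's mean in AAV-V (vertical axis) on each array (horizontal axis), for the 52 nuclear genes detected on all 9 arrays and the 11 genes of mitochondrial DNA, with the median of each array. The AAV-GP73 medians of the nuclear genes lie between 0.89 and 1.30, and those of the mitochondrial DNA genes between 0.60 and 1.93.

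Neighbouring groups of mitochondrial genes were read with the same fit. Of 13 TCA cycle enzymes, 10 were tested, and 10 were called higher in AAV-GP73 (median 1.80) and 7 in AAV-V HFD (median 1.5), against 33.2% and 24.8% of all genes tested. Of the 10, 6 were detected on no AAV-V array, and the 1 detected on all 9 arrays, malate dehydrogenase Mdh2, was called higher in both (1.80 and 1.82). Of 77 mitochondrial ribosomal protein genes, 53 were tested and 28 were called higher in AAV-GP73 (median 1.04). In AAV-V HFD, 28 were called higher and Mrps33 lower (-1.12), with a median of 1.13. Of the 53, 35 were detected on no AAV-V array. Among the 7 detected on all 9 arrays, 1 was called higher in AAV-GP73 (median 0.25), and in AAV-V HFD 2 were higher and 1 lower (median 0.62). Of 24 genes of the import pores and channels, 20 were tested, with 12 and 13 called higher (medians 1.16 and 1.11). Of the 20, 10 were detected on no AAV-V array, and of the 3 detected on all 9 arrays 1 and 2 were called higher. The adenine nucleotide carrier Slc25a5, which exports the ATP made, was at least 2.24-fold and at least 2.02-fold higher, and the phosphate carrier Slc25a3, detected on 2 AAV-V arrays, 1.23 and 1.19. Cytochrome c, Cycs, which carries electrons from complex III to IV, was 1.63 and 1.59 higher and also detected on 2 AAV-V arrays. With the offset of 50, 0 of the TCA cycle and mitochondrial ribosome genes were called higher in either comparison.

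Of 49 assembly factors of the 5 complexes on the arrays, 20 were tested, with 10 higher and 5 lower by the calls in AAV-GP73 (median 0.84). Of all genes tested, 33.2% and 19.4% were. For AAV-V HFD the calls were 11 higher and 4 lower (median 1.09), against 24.8% and 18.2% of all genes tested. Of the 20, 7 were detected on no AAV-V array, and of the 5 detected on all 9 arrays 1 was higher and 4 were lower in each comparison (medians -1.45 and -1.35). The difference between assembly factors and subunits was not tested. Sco2, a copper chaperone of complex IV, was detected on no AAV-V array. It was at least 2.59-fold higher in AAV-GP73, where the limma adjusted p of 0.000126 belongs to the difference as measured and not to the bound. It was the one assembly factor called between AAV-GP73 and AAV-V HFD (1.70, adjusted p = 0.0305 from limma). Lrpprc, which stabilises the transcripts of mitochondrial DNA, was at least 2.38-fold and at least 2.10-fold higher. Atpaf2, an assembly factor of the F1 head, was called lower in AAV-GP73 and not with HFD, but was detected on 1 AAV-V array and on no AAV-GP73 array, and its size is not given. Scaled on the spike-in spots, the calls in AAV-GP73 were 15 higher and 0 lower, where 76% and 1.46% of all genes tested were called. Of 19 regulators of mitochondrial biogenesis, 4 were tested. The nuclear receptors Esrra and Ppara, which drive genes of oxidative metabolism, were called higher in both comparisons and Yy1 in AAV-GP73 alone. All 3 were detected on no AAV-V array, and the one with a bound in both, Ppara, was at least 2.16-fold and at least 1.81-fold higher.

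Some markers of other cells differed between the groups, while the summed signals of other lists overlapped. Among erythroid markers, whose cells carry haemoglobin and lose their mitochondria, 3 of 4 tested were called higher in AAV-GP73 (33.2% of all genes tested). Hba-a1 and Hba-a2, nearly identical copies whose signals cannot be told apart, both rose by 3.85 in AAV-GP73. The summed scaled signal of the 6 erythroid markers ran from 379 to 922 in AAV-V, 3320 to 16600 in AAV-GP73 and 616 to 1090 in AAV-V HFD. The endothelial marker Clec4g was at least 1.5-fold higher in AAV-GP73, and the 7 endothelial markers summed to 30.0 to 39.1, 31.1 to 57.9 and 13.1 to 26.9. The 8 Kupffer cell and macrophage markers summed to 109 to 128, 111 to 171 and 122 to 216, and the 8 stellate cell markers to 163 to 282, 170 to 202 and 90.7 to 142. In each of the endothelial, Kupffer cell and stellate cell lists, 6 markers were detected on no AAV-V array, so that these sums include undetected signal. The 8 lymphocyte markers summed to 1810 to 3530 in AAV-V, 430 to 822 in AAV-GP73 and 851 to 1450 in AAV-V HFD. Of these, 6 were detected on no AAV-V array and 2 were tested, with differences of -2.38 (called) and -0.45 (not called) in AAV-GP73. A single bright probe can carry such a sum, which does not measure a number of cells. Of 5 cholangiocyte markers and 8 markers of muscle and adipocytes, 0 were detected on all arrays of a group. Of the hepatocyte markers, Hnf4a (2.46) and Tat (2.25) were called higher and Cps1 (-1.59) lower in AAV-GP73, and the 8 summed to 15600 to 25000, 15500 to 20500 and 9680 to 14800. The part of these markers in the results was not tested.

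**Figure D5:**
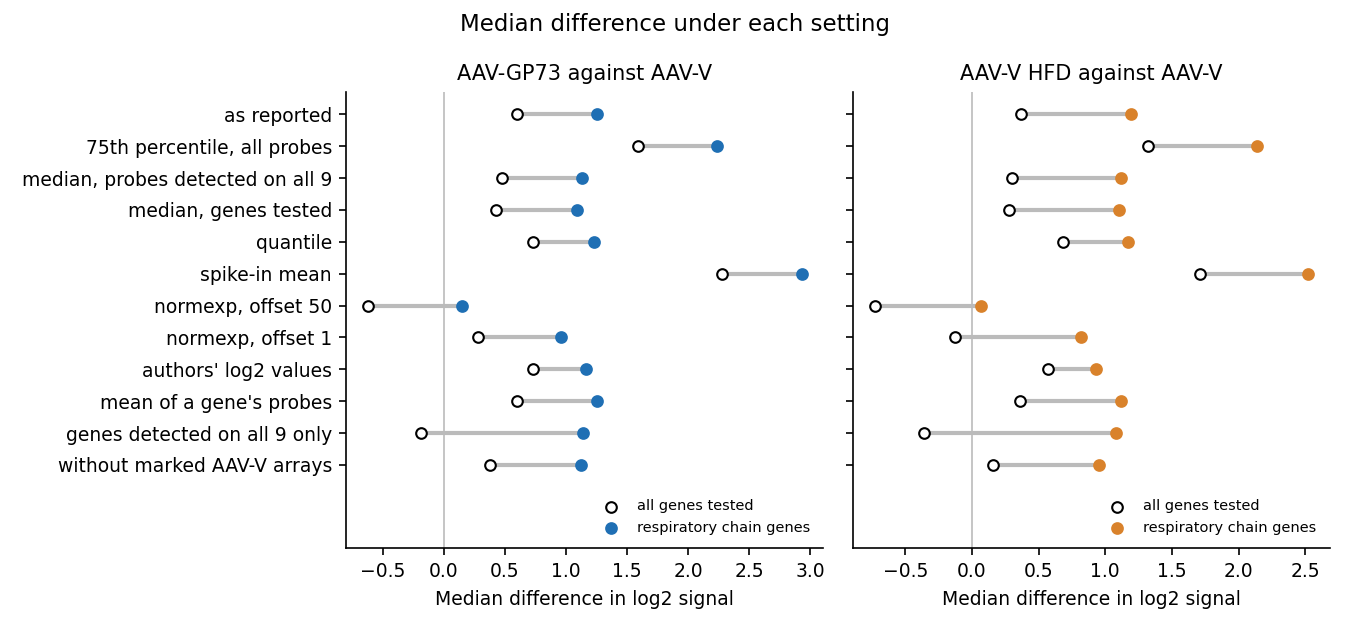
Median difference in log2 signal (horizontal axis) of the respiratory chain genes (filled) and of all genes tested (open) under each scaling, background correction and filter (vertical axis), for AAV-GP73 and AAV-V HFD against AAV-V. The filled point lies to the right of the open one under every setting shown, by 0.44 or more in AAV-GP73 and 0.36 or more in AAV-V HFD, while the filled points themselves run from 0.15 to 2.93 and from 0.07 to 2.52. Scalings that shift a whole array move both points alike, so that their distance is then fixed by construction.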

How the data were processed

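Liver RNA was measured on 9 1-colour arrays, grouped by the labels. The deposited intensity columns hold processed signals of Agilent Feature Extraction 12.0.3.1, per the file headers, with probes placed on mm9; the labels' processing notes list Feature Extraction 10.7 and limma. The log2 values deposited by the authors in the series matrix were an alternative. Their scale matched the processed signals (lowest correlation 0.98), with column medians of 0.799 to 0.801 whose centring is not stated.

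Spots of a probe were averaged, and log2 signals were shifted to an equal 75th percentile over the 2667 probes well above background on all 9 arrays. Control spots were left out. The brightest probe per gene name was kept, and 5761 genes were fitted in R 4.3.3 with limma 3.58.1 (lmFit and eBayes, all 3 groups, 11.8 residual plus prior degrees of freedom; data.table version 1.17.8). Calls needed a p under 0.05 after Benjamini-Hochberg adjustment over these genes, and a fold of 2 or more. The number of arrays limits the precision: an exact permutation test of 3 against 3 cannot go below 0.1. An "at least" fold sets the mean of the bright group against the dim group's mean of, per array, the higher of the lowest detected signal and the probe's own.

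Tested on simulated data of AAV-GP73 against AAV-V (5759 genes, 200 changed), the fit recovered 60% of changes of 1.5 and 77% of changes of 2 (log2), and called 3 unchanged genes. The members and lists were chosen with earlier results of these data known. Named with values were the catalytic and core subunits, the largest and smallest change in each complex, the isoform families, every gene called lower and the smallest p between AAV-GP73 and AAV-V HFD, and in other lists the largest changes called. Alternatives varied the scaling, background correction, source, filter, probe rule, test, threshold, pairing and arrays, and 2 were added after seeing the data. A gene that the naming rule covers is counted but not reported by name here. Promoters are from RefSeq (GRCm38.p6). All 86 names matched a gene and 69 had a promoter, and protein sequences were not used here.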

Additional observations from a re-analysis of the deposited data

How the results depend on the processing

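The 0 calls between AAV-GP73 and AAV-V HFD held under every alternative run, and leaving out each array in turn gave 53 to 63 genes called higher in AAV-GP73 against AAV-V and 43 to 52 in AAV-V HFD against AAV-V, with 1 lower throughout. Counts changed by more than 1.5 times as follows, AAV-GP73 first. With normexp and an offset of 50, the counts higher were 5 and 3, and 0 was lower in AAV-V HFD. With an offset of 1 the counts higher were 36 and 28. Among genes detected on all 9 arrays they were 36 and 31, since fewer genes were tested. Without the marked AAV-V arrays, 29 were higher and 0 lower in AAV-V HFD. With no filter on dim probes, 9 and 7 were lower, and these include isoforms below background. The count lower was 0 in both comparisons with all probes or spike-in spots as reference, and 0 in AAV-V HFD under quantile normalisation and with the authors' log2 values. The cause of these changes was not tested.

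Of 96 differences of named genes, 2329 of 2463 values under the alternatives kept their call or lack of one, 86 lost a call and 31 gained one. The sign turned in 60 values, in 43 of them with no call under either setting. The other 17 involved a call. Scaled on spike-in spots, these were Ndufc2 in AAV-GP73 (1.19) and Atp5g2 (0.09) and Atp5f1 (1.16) in AAV-V HFD. With the offset of 50 they were, in AAV-GP73, Ndufv2 (-0.06), Ndufs1 (-0.41), Sdha (-0.11), Uqcrc1 (-0.01), Cox7b (-0.03) and Sdhc (-0.38). In AAV-V HFD they were Ndufv1 (-0.07), Ndufv2 (-0.25), Ndufs1 (-0.63), Ndufs7 (-0.07), Sdha (-0.38), Uqcrc1 (-0.35), Uqcrc2 (-0.40) and Sdhc (-0.31).

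Over all genes tested, the replicate numbers did not pair the samples: deviations of same-numbered arrays correlated at -0.12 to 0.17, with 2 of 9 pairs over 0.1. The median of the mitochondrial DNA genes fell from replicate 1 to replicate 3 in each group, and a pairing was not tested for those genes by themselves. With the replicate block, the counts higher and lower were 57 and 1 with GP73, 49 and 1 with HFD, and 0 between AAV-GP73 and AAV-V HFD, as without it. Signal over background limits the 23 tested genes that were not detected on all AAV-V arrays.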
